A study of Mus musculus with 8 samples.

Results

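B2 elements are short interspersed repeats of the mouse genome, and the deposited table of small RNA counts lists 62059 rows for them among 1010917 rows in all. A row is 1 repeat copy read on 1 strand: 27251 rows hold sense reads and 34808 antisense reads of 59003 B2 copies. The rows were chosen by name, as those the table files under the B2 family of SINEs, and were summed by subfamily (B2_Mm1a, B2_Mm1t, B2_Mm2, B3 and B3A) and strand. The libraries came from mouse spermatozoa of the C57BL/6J strain, 4 labelled Control-Cessation and 4 labelled EtOH-Cessation, called control and EtOH here. The title of the series places the samples after a month without alcohol, so the comparison asks whether sperm small RNA still differed once exposure had ended. The labels give no dose, route, age or duration of treatment. They also leave unsaid if the 4 libraries of a group are 4 animals, and p-values cover the variation among the libraries alone, which may be technical.

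B2 elements descend from a transfer RNA gene and carry an internal promoter for RNA polymerase III. They do not encode a protein and are copied with the machinery of LINE-1 elements. Full-length B2 RNA is known to bind RNA polymerase II and to reduce its activity after heat shock. The B2_Mm subfamilies are the younger members of the family, and B3 and B3A are older ones. In male germ cells repeat RNA is held down by PIWI proteins, guided by piwi-interacting RNAs (piRNAs). Many piRNAs come from long single-stranded precursors, transcribed from genomic loci called piRNA clusters. Repeats that lie inside such precursors are cut into piRNAs along with them.

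Library totals ran from 3116421 to 6805989 counts, of which 6597 to 25573 fell on B2 rows, 0.212% to 0.391% of a library. MicroRNA rows took 16.8% to 27.7% of control libraries and 6.96% to 10.1% of EtOH libraries, and exon rows 7.07% to 7.73% and 9.08% to 30.5%. All 10 epididymal epithelium markers searched had counts in these libraries, and their exon rows summed to 357 to 490 counts per 1000000 counts (CPM) in controls and 706 to 17629 in EtOH libraries, highest in EtOH replicate 2. All 10 markers of late spermatids and sperm were also present, at 423 to 542 CPM in controls and 285 to 398 in EtOH libraries. The sums for 3 leukocyte markers were 6.89 to 15.9 and 4.26 to 20.5 CPM, and for 4 red blood cell genes 15.6 to 31.6 and 1.62 to 16.7 CPM. CPM are relative to all counts of a library, with no further scaling. The part these marker levels play in the B2 values was not tested, and in bulk RNA fewer cells of a type and less RNA per cell cannot be told apart.

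B2 counts in sperm fell mostly on the older subfamilies. B3 held 52.6% of all B2 counts and B3A 30.4%, followed by B2_Mm2 with 14.1%, B2_Mm1t with 1.90% and B2_Mm1a with 1.02%. Levels between subfamilies are totals over unequal numbers of copies, from 2268 rows for B2_Mm1a to 27684 for B3, and not levels per length. The sources used here do not say how reads with several matches were assigned, and the part this plays in the shares was not tested. Most copies were barely sampled. Of the 62059 rows, 17477 had no count in any library, and 31088 of the other 44582 rows (69.7%) had a single count over all 8 libraries.

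**Figure D1:**
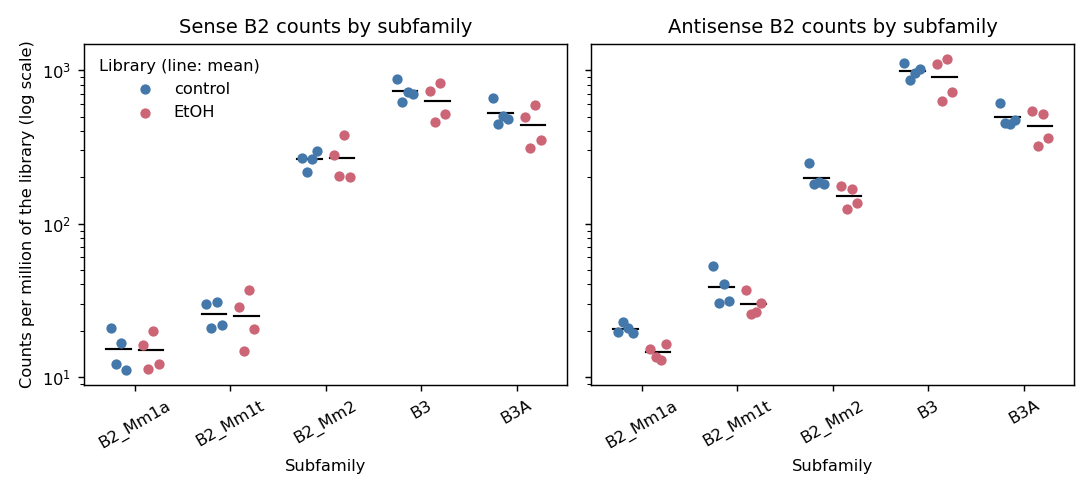
B2 levels in CPM (log scale) for sense and antisense reads of the 5 subfamilies, 1 point per library, with a line at the mean of each group of 4. Control and EtOH points overlap in every column except antisense B2_Mm1a and antisense B2_Mm2, where all 4 controls lie above all 4 EtOH libraries.

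No B2 subfamily passed the test between groups on either strand, while all 10 sums had a log2 fold change below 0. Fold changes are EtOH over control from edgeR's quasi-likelihood test, with library scaling by trimmed means (TMM), with Benjamini-Hochberg adjustment over all 9822 features of the table with repeats summed. The count of subfamily sums past an adjusted p of 0.05 was 0 of 10 by edgeR, where 9.92% of all features passed, 0 of 10 by limma voom, where 9.20% passed, and 1 of 10 by DESeq2, where 19.5% passed. At an unadjusted p under 0.05 in edgeR the count was also 0, beside 29.2% of all features. Control libraries all lay above EtOH libraries in CPM for 2 of the 10 sums, against 4.34% of the 1038 repeat sums tested. Over all features, 17.4% had groups that did not overlap in either direction. The median log2 fold change of the 10 sums was -0.33, beside -0.04 over all features and -0.41 over the 1028 other repeat sums. Their standard errors were 0.32 to 0.39, as large as most of the fold changes.

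Antisense reads of B2_Mm1a, the least counted subfamily, gave the lowest p. They stood at 19.5, 22.8, 20.7 and 19.3 CPM in control replicates 1 to 4 and at 15.04, 13.5, 12.8 and 16.3 CPM in EtOH replicates 1 to 4. The groups did not overlap, with the lowest control above the highest EtOH library. The log2 fold change was -0.66 with an SE of 0.32, and the adjusted p by edgeR's quasi-likelihood test was 0.188. By DESeq2 the adjusted p was 0.0449, the lowest among the alternatives tried, which ran up to 0.716. A library held 42 to 100 antisense B2_Mm1a counts, which limits the precision of these values. The sense reads of the same subfamily stood at 20.7, 12.1, 16.6 and 11.1 CPM in controls and at 16.1, 11.2, 19.98 and 12.1 CPM in EtOH libraries, which overlap throughout (log2 fold change -0.14, SE 0.37).

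Antisense reads of B2_Mm2 also separated the groups. Controls stood at 248, 181, 186 and 180 CPM and EtOH libraries at 176, 125, 168 and 137 CPM. The gap between the lowest control and the highest EtOH library was narrow, and control replicate 1 stood far above the other controls. The log2 fold change was -0.53 with an SE of 0.33 and an adjusted p of 0.302 (edgeR). Sense B2_Mm2 reads overlapped between the groups. They were 268, 218, 264 and 299 CPM in controls and 279, 205, 379 and 203 CPM in EtOH libraries, with the highest and the lowest of the 8 values both in the EtOH group (log2 fold change -0.11, SE 0.36). No test compared the strands' fold changes with each other.

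B2_Mm1t, the third of the younger subfamilies, had 52.6, 30.2, 40.1 and 31.0 antisense CPM in controls and 36.7, 25.7, 26.4 and 30.2 in EtOH libraries (log2 fold change -0.51, SE 0.34, adjusted p = 0.341 by edgeR). EtOH replicate 1 lay above 2 of the controls. Its sense reads averaged 25.7 ± 5.35 CPM in controls and 25.04 ± 9.48 CPM in EtOH libraries (SD, n = 4 each), with a log2 fold change of -0.15 (SE 0.39).

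The older subfamilies, with most of the counts, showed wide spread among EtOH libraries. Sense B3 stood at 885, 618, 723 and 697 CPM in controls and 731, 461, 823 and 520 CPM in EtOH libraries, and antisense B3 at 1113, 865, 956 and 1015 against 1100, 627, 1179 and 728 CPM. EtOH replicates 1 and 3 were within or above the range of the controls and EtOH replicates 2 and 4 below it. The log2 fold changes were -0.33 (SE 0.35) for sense and -0.25 (SE 0.36) for antisense B3, with adjusted p of 0.562 and 0.695 by edgeR. Sense B3A reads stood at 661, 444, 507 and 485 CPM in controls and 495, 314, 596 and 352 CPM in EtOH libraries. Antisense B3A stood at 614, 457, 449.6 and 476 CPM in controls and 541, 319.9, 517 and 361 CPM in EtOH libraries. EtOH replicates 2 and 4 were again below every control on both strands. The log2 fold changes of B3A were -0.38 (SE 0.36) and -0.33 (SE 0.34), with adjusted p of 0.512 and 0.556 by edgeR.

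**Figure D2:**
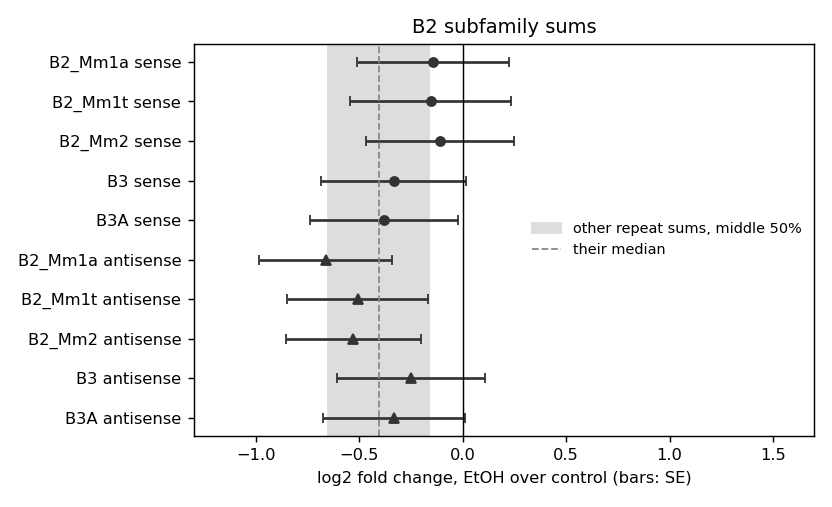
Log2 fold change, EtOH over control, of the 10 B2 subfamily sums (points) with their standard errors (bars), beside the middle 50% of the 1028 other repeat sums (grey band, -0.65 to -0.16) and their median (dashed line, -0.41). All 10 points lie left of 0, and all 10 bars reach into the band.

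As a share of each library, B2 reads differed by less than the spread between libraries. Sense B2 reads made up 0.156% ± 0.0228 of control counts and 0.138% ± 0.0395 of EtOH counts (SD, n = 4 each; two-sided exact permutation p = 0.514, adjusted 0.617 over the 6 measures compared). Antisense reads made up 0.174% ± 0.0213 and 0.154% ± 0.0406 (exact permutation p = 0.400, adjusted 0.600). The sense difference of -0.018 percentage points became -0.0055 without EtOH replicate 2 and -0.034 without EtOH replicate 3, and the antisense difference of -0.021 became -0.0063 and -0.033. As a percent of counts outside the miRNA rows, the differences were -0.044 for sense (exact permutation p = 0.200, adjusted 0.240) and -0.050 for antisense (exact permutation p = 0.171, adjusted 0.240). With 4 libraries against 4 there are 70 splits, and the smallest p they allow is 0.0286.

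Measured against other repeats of the same libraries, the B2 share also missed the threshold. B2 took 22.3%, 21.7%, 21.6% and 20.9% of all SINE counts in controls and 20.8%, 20.5%, 20.7% and 21.4% in EtOH libraries, a difference of -0.749 percentage points (exact permutation p = 0.0571, adjusted 0.171). EtOH replicate 4 lay above 1 control. The log2 ratio of B2 to B1 sense counts, B1 being the other large mouse SINE family, was -0.15 ± 0.10 in controls and 0.04 ± 0.15 in EtOH libraries (SD, n = 4 each; exact permutation p = 0.0857, adjusted 0.171). The log2 ratio of B2_Mm to B3 and B3A sense counts, young against old, was -2.04 ± 0.19 and -1.81 ± 0.11 (SD, n = 4 each; exact permutation p = 0.0857, adjusted 0.171). Without the most abundant copy of each subfamily and strand the B2 to B1 difference changed sign, from 0.19 to -0.06. This difference was 0.51 with identical copies entered once and 0.74 with abundant rows alone. Each had an exact permutation p of 0.0286, the smallest possible, and 0.171 after adjustment. With scattered rows alone it was -0.27 (exact permutation p = 0.0857, adjusted 0.129). In abundant rows, sense B1 stood at 905 ± 129 CPM in controls and 603 ± 221 in EtOH libraries, and sense B2 at 618 ± 140 and 694 ± 319 (SD, n = 4 each). The settings by abundance were added after the values were seen.

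Antisense B2 reads outnumbered sense reads in every library. The log2 ratio of sense to antisense was -0.13, -0.24, -0.10 and -0.19 in controls and -0.27, -0.14, -0.04 and -0.20 in EtOH libraries, a mean of -0.16 ± 0.08 (SD, n = 8), below 0 in 8 of 8 libraries. A two-sided exact sign-flip permutation test over the 8 libraries gave p = 0.0078125, the smallest it can give, and the same value after adjustment over 2 such comparisons. All libraries were counted over the same B2 copies. This p and the later sign-flip p-values therefore cover variation among libraries and not variation among copies. When B2 rows with identical counts in all 8 libraries entered once, the mean was -0.0051 (adjusted p = 0.859). This setting merges by construction the many rows that hold a single count. Between groups the balance differed by less than the spread between libraries. Sense reads were 47.1% ± 1.09 of B2 counts in controls and 47.2% ± 1.702 in EtOH libraries (SD, n = 4 each; exact permutation p = 0.971, adjusted 0.971).

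**Figure D3:**
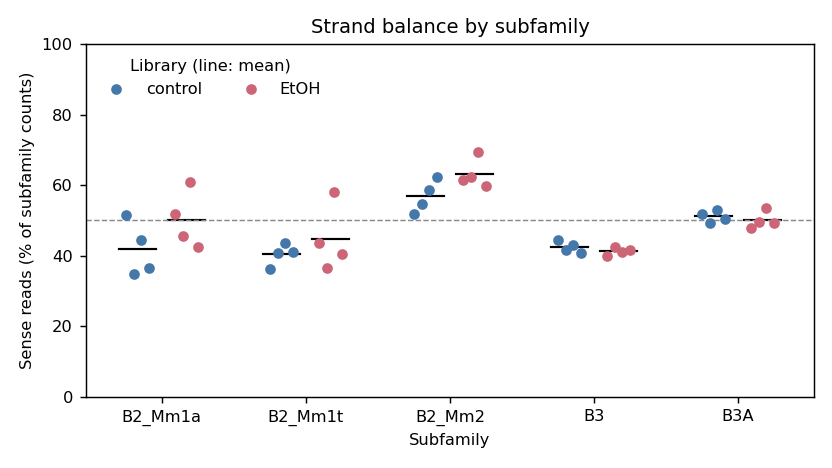
Sense reads as a percent of each subfamily's counts, 1 point per library, with a line at the group mean and a dashed line at 50%. B2_Mm2 lies above 50% in all 8 libraries and B3 below it in all 8, while the other subfamilies have libraries on both sides.

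The subfamilies did not share this balance. B2_Mm2 was the most sense-rich, with 51.9% to 69.3% sense reads and more than 50% in 8 of 8 libraries. Its sense percent averaged 56.9 ± 4.58 in controls and 63.1 ± 4.27 in EtOH libraries (SD, n = 4 each), with overlapping groups, and was not tested between them. Much of its sense count came from few copies. B2_Mm2_copy63067 carried 23.7% of it, with a mean of 322 sense counts per library, and B2_Mm2_copy82351 had a mean of 249. The balance of B2_Mm2 without both copies was not computed. B3 held 39.9% to 44.3% sense reads, under 50% in 8 of 8, and B3A 47.8% to 53.6%, above 50% in 4. The sparse B2_Mm1t and B2_Mm1a ranged from 36.2% to 58.0% and from 34.7% to 61.0%, above 50% in 1 and 3 libraries. The log2 ratio of sense to antisense was higher for the B2_Mm subfamilies together than for B3 and B3A in 8 of 8 libraries. The difference was 0.71 ± 0.36 (SD, n = 8), with a two-sided exact sign-flip permutation p of 0.0078125, the smallest possible, and the same after adjustment. By library it was 0.15, 0.42, 0.53 and 0.86 in controls and 0.93, 0.79, 1.33 and 0.68 in EtOH libraries, and the groups were not tested against each other. Without the most abundant copy of each subfamily and strand the difference was 0.30, above 0 in 7 of 8 libraries (exact sign-flip permutation p = 0.0391, adjusted 0.0391). The most counted rows and the rest did not share the difference of 0.71. Among rows with a mean count under 10 it was -0.10, above 0 in 3 of 8 libraries (exact sign-flip permutation p = 0.422, adjusted 0.422). Among rows with a mean count of 10 or more it was 2.72, above 0 in 8 of 8. These sets were divided after the values were seen, by the count of each row on its own strand in these same libraries. The division can itself favour such a difference, and how far it does was not tested.

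B2 reads fell into a small set of abundant rows and a very large set of scattered ones. Rows with a mean count of at least 10 over the 8 libraries numbered 93, from 92 copies, and held 42.6% of all B2 counts. They made up 46.1% of sense counts (48 rows) and 39.5% of antisense counts (45 rows). Abundant rows held 58.6% of sense B2_Mm2 counts in 9 rows but 17.2% of its antisense counts in 7 rows. In B3 they held 43.1% of sense counts (23 rows) and 44.8% of antisense counts (28 rows), and in B3A 46.1% (15 rows) and 41.0% (10 rows). B2_Mm1t had 1 abundant row, with 19.7% of its sense counts, and B2_Mm1a had none.

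Abundant copies were read almost entirely on 1 strand. Of the 92 copies, 46 had more than 95% of their counts in sense, 42 had more than 95% in antisense, and 4 lay between, the least one-sided being a B3 copy with 8.74% sense reads. Copies with close numbers in the table were often abundant together: 53 of the 92 had another abundant copy of the same subfamily within 2 of their own number, in 18 runs of 2 to 6 copies. Whether copy numbers follow the order of copies along chromosomes is not given in the sources used here. The longest run, B3_copy11995 to B3_copy12000, had 6 copies, all read in sense, and 11 of the 18 runs mixed mostly sense with mostly antisense copies. One such pair was B3_copy11988, with 95.7% sense reads, and B3_copy11989, with 0.0456% sense reads.

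**Figure D4:**
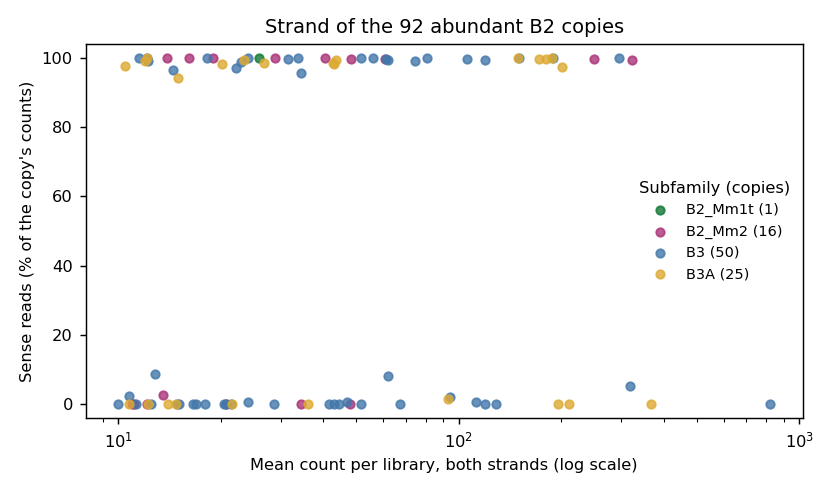
Sense reads as a percent of a copy's counts against its mean count per library (log scale), 1 point for each of the 92 abundant B2 copies, coloured by subfamily. Of the points, 46 lie above 95% and 42 below 5%, leaving 4 between.

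The most abundant copies varied widely between libraries, with overlapping groups. B3_copy11989, read in antisense, was the most counted of all, at 171, 107, 118 and 163 CPM in controls and 192, 80.5, 282 and 114 CPM in EtOH libraries. Its highest and lowest values were both in the EtOH group, in replicates 3 and 2. The next antisense copies were B3A_copy83865 at 69.3 ± 15.9 and 70.6 ± 31.9 CPM, B3_copy104230 at 56.0 ± 14.3 and 58.4 ± 25.6 CPM, and B3A_copy25260 at 38.3 ± 10.9 and 42.1 ± 18.1 CPM (SD, n = 4 each). The 4 most counted antisense copies had adjusted p of 0.842 to 0.962 by edgeR.

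In sense, B2_Mm2_copy63067 stood at 66.3, 39.9, 63.8 and 74.4 CPM in controls and 61.1, 53.9, 96.7 and 44.9 CPM in EtOH libraries, and carried 23.7% of all sense B2_Mm2 counts. B3_copy100182 averaged 57.0 ± 18.0 and 57.0 ± 21.3 CPM, and B3A_copy29440 37.4 ± 11.6 and 37.9 ± 18.7 CPM (SD, n = 4 each). B2_Mm2_copy82351 was steady in controls, at 40.2, 40.1, 37.5 and 42.2 CPM, and reached 50.4, 34.3, 94.6 and 34.6 CPM in EtOH libraries. The groups overlapped for each of these sense copies, and their adjusted p by edgeR were 0.815 to 0.861.

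Of the B2 copies tested one by one, none passed the test. The low-count filter kept 84 B2 rows among 10234 rows tested as deposited. The count past the threshold was 0 of 84 by edgeR, where 0.186% of all rows passed, 0 by DESeq2, where 17.1% passed, and 0 by limma voom, where 7.10% passed. At an unadjusted p under 0.05 in edgeR it was 0, beside 27.0% of all rows. The 84 log2 fold changes ran from -1.16 to 1.06 with a median of -0.08, against -0.09 over all rows, and 31 lay above 0 and 53 below.

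The lowest p belonged to B2_Mm2_copy61430 in sense, at 6.66, 6.41, 7.83 and 6.71 CPM in controls and 4.81, 5.13, 4.996 and 4.74 CPM in EtOH libraries. Both groups were tight and did not overlap, yet the adjusted p was 0.199 (edgeR, log2 fold change -0.72, SE 0.34). The sense reads of B3_copy104230 had a log2 fold change of -1.16 and those of B3_copy11995 of -0.87, with adjusted p of 0.204 and 0.257 by edgeR and overlapping groups. In the other direction B3A_copy69077 had the lowest p, at 2.98, 1.19, 0.230 and 0.839 CPM in controls and 3.46, 2.25, 4.70 and 2.10 CPM in EtOH libraries (log2 fold change 1.06, adjusted p = 0.228 by edgeR). It was followed by B2_Mm2_copy51675 and B2_Mm2_copy56826, with log2 fold changes of 0.50 and 0.48 and adjusted p of 0.539 and 0.570 by edgeR.

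Without the low-count filter 2 of the 44582 B2 rows with counts passed in edgeR, where 0.189% of 867194 rows passed, and the one described here was named after its values were seen. B3_copy5537 in antisense had 9, 16, 3 and 8 counts in controls and 0, 0, 1 and 0 in EtOH libraries (adjusted p = 0.000391 by edgeR). With the libraries of each group pooled, 36 counts against 1, the ratio of control to EtOH counts relative to library totals was 45.4. Its exact 95% interval, for counting error alone, was 7.64 to 1841.

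Abundant B2 rows varied less in their ratio to the counts of piRNA cluster rows than scattered rows did. Per 1000 piRNA cluster counts, abundant sense rows had 2.89, 2.86, 3.08 and 2.96 counts in controls and 2.72, 3.39, 3.31 and 3.41 in EtOH libraries, and abundant antisense rows 2.78 to 3.13 over all 8. Over the same libraries, piRNA clusters ran from 13.02% to 34.5% of all counts, and the abundant sense rows from 420 to 1142 CPM. Both were highest in EtOH replicate 3, which also had the largest library total, 6805989 counts. Rows were divided by mean raw count over these same libraries, so the deepest libraries weighed most in the division. The division can itself favour a difference between the sets, and how far it does was not tested. Scattered rows ran from 2.06 to 6.10 sense and from 2.44 to 7.78 antisense counts per 1000 piRNA cluster counts. Narrow ratios were also found in other repeat families of these libraries. Abundant antisense rows ran from 2.23 to 2.97 counts per 1000 piRNA cluster counts in B1, from 3.37 to 3.74 in B4 and from 34.8 to 38.3 in L1, and abundant rows of MIR from 5.90 to 6.14 in sense and from 8.93 to 9.92 in antisense. Abundant sense rows of B1, B4 and L1 varied more, from 2.53 to 5.02, from 4.41 to 8.34 and from 33.7 to 87.2. All of these values share the library totals, and whether a read could be counted in both classes is not given in the sources used here.

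**Figure D5:**
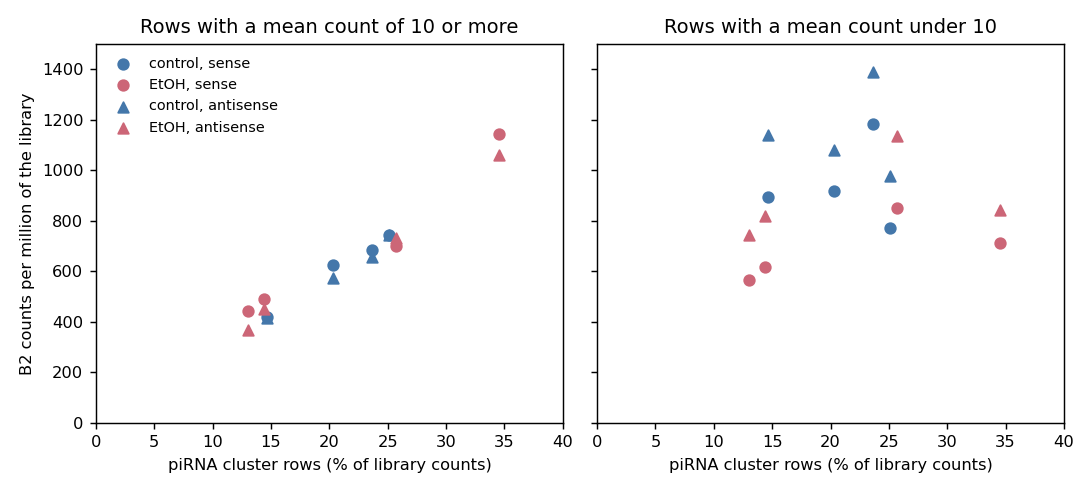
B2 levels in CPM against the percent of library counts in piRNA cluster rows, for B2 rows with a mean count of 10 or more (left) and under 10 (right), 1 point per library and strand. Points on the left lie close to a line through the origin, up to EtOH replicate 3 at 34.5% piRNA cluster counts, while points on the right do not rise with it.

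Neither set passed the test between groups. Abundant sense rows stood at 683, 420, 625 and 743 CPM in controls and 699, 442, 1142 and 492 CPM in EtOH libraries (exact permutation p = 0.714, adjusted 0.771). Scattered sense rows stood at 1182, 894, 917 and 771 CPM in controls and 850, 564, 713 and 615 CPM in EtOH libraries. There 1 EtOH library reached above the lowest control (exact permutation p = 0.0571, adjusted 0.129). Scattered antisense rows averaged 1147 ± 175 CPM in controls and 886 ± 172 CPM in EtOH libraries (SD, n = 4 each; exact permutation p = 0.0857, adjusted 0.129), and abundant antisense rows 597 ± 141 and 653 ± 313 CPM (exact permutation p = 0.771, adjusted 0.771). The division by mean count was chosen after the values were seen, and the difference between the sets was not tested.

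The strand balance of each set was tested on its own, and the sets were not tested against each other. Scattered rows had a mean log2 ratio of sense to antisense of -0.33, below 0 in 8 of 8 libraries (two-sided exact sign-flip permutation p = 0.0078125, adjusted 0.0156), and abundant rows one of 0.08, above 0 in 6 of 8 (exact sign-flip permutation p = 0.0625, adjusted 0.0625).

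Other RNA polymerase III products were read for comparison with B2, whose full-length RNA is made by that enzyme. Of 20 names listed, 12 had a tested row, 138 rows in all, of which 1 was higher and 1 lower in EtOH at an adjusted p under 0.05 by edgeR, where 8.08% of all features passed as higher and 1.83% as lower. Their median log2 fold change was -0.86, against -0.04 over all features. Most of these rows belong to 4.5SRNA, a rodent RNA related to B1. Its 103 tested copies, near-identical and uncertain one by one, had a median of -0.997 with 99 below 0, 0 past the threshold and 62 lower at an unadjusted p under 0.05 in edgeR, beside 8.46% of all features. The 4.5SRNA copy with the lowest p, 4.5SRNA_copy1357, stood at 49.0 ± 21.4 CPM in controls and 20.3 ± 4.87 CPM in EtOH libraries (SD, n = 4 each; adjusted p = 0.0501 by edgeR).

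Rmrp, the RNA of the RNase MRP enzyme that processes ribosomal RNA, was lower in EtOH. It stood at 148, 209, 185 and 91.8 CPM in controls and 46.9, 66.1, 34.97 and 27.4 CPM in EtOH libraries, without overlap (log2 fold change -2.04, SE 0.39, adjusted p = 0.0366 by edgeR). HY3_copy15, a copy of a Y RNA, was higher, with 1.76 ± 0.367 CPM in controls and 10.3 ± 7.63 CPM in EtOH libraries (SD, n = 4 each). Its log2 fold change was 2.31 (SE 0.53), with an adjusted p of 0.0366 by edgeR. The calls of Rmrp and HY3_copy15 were lost with size factors by median of ratios (adjusted p = 0.0523 by edgeR) and with scaling to piRNA cluster totals (0.233). They were also lost when EtOH replicate 4 or any 1 control was left out (0.0535 to 0.109). Over all alternatives the adjusted p ran from 2.47e-05 to 0.233 for Rmrp and from 0.000950 to 0.233 for HY3_copy15. BC1_Mm, the rodent neuronal RNA that gave rise to another SINE family, had 6 copies tested with a median log2 fold change of -0.24, and 7SLRNA, the RNA of the signal recognition particle from which B1 descends, had 16 with a median of 0.45, none of them past the threshold or at an unadjusted p under 0.05 in edgeR. In 7SLRNA_copy100, among the most counted of the 16, EtOH replicate 2 stood at 4395 CPM. The other EtOH libraries stood at 798, 852 and 1059 CPM, and controls at 715 to 1103 CPM.

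Genes whose products transcribe, bind or silence SINEs were represented by few fragments. Of 41 listed, 8 had a tested exon row, 19 rows in all, with a median log2 fold change of 0.14. The count past the threshold was 0 of 19 by edgeR, with 2 of 19 higher at an unadjusted p under 0.05, a share below the 20.7% of all features. These were exon rows of Polr3k, a subunit of RNA polymerase III, at 1.48 ± 0.335 and 3.86 ± 2.17 CPM (SD, n = 4 each; log2 fold change 1.13, adjusted p = 0.0870 by edgeR), and of Chd4, a chromatin remodeller that binds SINEs in the ChAHP complex, at 1.64 ± 0.454 and 4.41 ± 3.28 CPM (SD, n = 4 each; log2 fold change 1.14, adjusted p = 0.123 by edgeR). Chd4 gave 10 of the 19 rows, 7 with a log2 fold change above 0 and 3 below, and their median was 0.18. A second exon of Chd4 had a log2 fold change of 0.87 (adjusted p = 0.175 by edgeR). EtOH replicate 2, highest in epididymal markers, was also the highest library for the Polr3k row and for the 2 Chd4 exons named here.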

How the data were processed

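The authors deposited 1 table of counts for the 8 libraries, whole numbers per annotated feature with no normalization. Per the submitters' processing notes, adapters were trimmed with cutadapt (no version given); per the labels, read 1 alone entered the counts. RNA was extracted with guanidinium thiocyanate and a reducing agent, per the labels' protocols. The design text speaks of the caput of the epididymis, the labels of mature sperm. The sources used here do not name the aligner, genome build or annotation, or say how reads with several matches were assigned. Values of single copies of a repeat are therefore uncertain, and 5 of the 214 B2 rows with 20 or more counts shared identical counts with another.

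Columns were matched to samples by title. Repeat rows were summed by subfamily and strand, and the table was fitted whole, with filterByExpr defaults (minimum count 10, minimum total 15), TMM scaling and the quasi-likelihood test of edgeR 4.0.16 (R 4.3.3). P-values were Benjamini-Hochberg adjusted, with a threshold of 0.05. Rows as deposited were fitted the same way. Alternatives were DESeq2 1.42.0, limma 3.58.1 voom with quality weights, other scalings and filters, each library left out, EtOH libraries of either identifier form alone, other ways of summing copies, and repeat rows alone. Added after the values were seen were abundant rows alone, scattered rows alone, and identical copies merged at 20 or more counts. Shares were compared by exact permutation over the 70 splits, and within-library ratios over 256 sign flips. The fits were tested on simulated data. Features to which DESeq2 gave no adjusted p stay in the denominator of the percent that passed.

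Named features were every subfamily and strand, the 4 most abundant copies per strand, the 3 with the lowest p in each direction, and the 3 members with the lowest p in each gene list. The members and lists were chosen with earlier results of these data known. Depth limits most single copies to under 10 counts in a library. No B2 sequence was used here. A further single-copy result is not reported here.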

Additional observations from a re-analysis of the deposited data

Results flagged for a closer look

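In groups of 4 libraries, a library was singled out where its gap to the nearest other, relative to the group's range, exceeded Dixon's 95% critical value. Of 76 groups tested, 4 met this, and chance gives about 1 in 20. Control replicate 1 stood at 248.1 CPM for antisense B2_Mm2, against 180.3 to 185.9 in the other controls. The same library stood at 614.4 CPM for antisense B3A, against 449.6 to 475.8. Control replicate 3 stood at 4.15 CPM for sense B3_copy11995, against 2.31 to 2.52. EtOH replicate 3 stood at 0.147 CPM for antisense B3_copy5537, which is 1 count, against 0 in the other EtOH libraries.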

How the results depend on the processing

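Calls on B2 held at 0 of 10 sums and 0 single copies in all settings run except 2: DESeq2 called 1 sum, and no filter called 2 single copies. Leaving out each library in turn gave 0 to 0 for both. The main fit tested 84 single B2 copies, and the rows tested changed with the filter and the libraries used. The count over the whole summed table was unsteady, at 974 features with TMM, 6 with median-of-ratios factors, 0 with piRNA cluster scaling, and 4 (without EtOH replicate 4) to 2491 (without EtOH replicate 3) with a library left out. The median log2 fold change of all features was -0.04 with TMM, 0.10 with library size alone and 0.12 with piRNA cluster scaling, so signs near 0 turn with the scaling. No paired analysis was possible because the replicate numbers follow the order of the samples and the labels pair no libraries.

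Differences between groups, EtOH minus control, turned sign as follows. With identical copies entered once, the sense share was 0.00347 percentage points, the antisense share 0.000392 and the B2 part of SINE counts 0.541. Without the most abundant copy the log2 ratio to B1 was -0.065. With abundant rows alone the sense share was 0.00761, the antisense share 0.00557 and the part of SINE counts 1.18. With scattered rows alone the sense percent was -1.32 and the ratio to B1 -0.27. The sense percent was -0.699 with EtOH replicates 1 and 2 alone, and -0.664 to 0.677 with a library left out. Of the means over all 8 libraries, the log2 sense to antisense ratio turned to 0.079 with abundant rows alone and weakened to -0.0051, without a change of sign, with identical copies entered once, and the strand difference of B2_Mm and B3 turned to -0.098 with scattered rows alone. The cause was not tested.

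Log2 fold changes that were not past the threshold turned sign as follows. With repeat rows alone, which centres on other repeats, sense and antisense B3 were 0.11 and 0.17, sense and antisense B3A 0.059 and 0.11, and sense B2_Mm1a, B2_Mm1t and B2_Mm2 0.31, 0.26 and 0.32. With no filter these 3 sense sums were 0.030, 0.052 and 0.051, with EtOH replicates 3 and 4 alone 0.091, 0.15 and 0.13, and with a library left out -0.46 to 0.052, -0.53 to 0.10 and -0.48 to 0.079. With identical copies once, sense B2_Mm1a and B2_Mm1t were 0.028 and 0.17. Sense B2_Mm2 was 0.022 with library size alone and 0.014 with piRNA cluster scaling.

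Among single copies, with library size alone, piRNA cluster scaling and EtOH replicates 3 and 4 alone, B2_Mm2_copy63067 was 0.070, 0.094 and 0.16, B3_copy100182 0.00072, 0.041 and 0.23, antisense B3_copy104230 0.062, 0.014 and 0.16, B3A_copy25260 0.14, 0.14 and 0.34, and B3A_copy29440 0.023, 0.027 and 0.35. B3A_copy83865 was 0.028 with library size alone and 0.075 with EtOH replicates 3 and 4 alone. With no filter antisense B3_copy104230 was 0.018 and B3A_copy25260 0.081, and B3A_copy25260 was 0.012 with median-of-ratios factors and 0.013 with DESeq2. B3_copy11989 was -0.018 at a mean count of at least 10, and with EtOH replicates 1 and 2 alone it was -0.40 and B2_Mm2_copy82351 -0.33. With a library left out the ranges were -0.51 to 0.049 for B2_Mm2_copy63067, -0.32 to 0.45 for B2_Mm2_copy82351, -0.56 to 0.048 for B3_copy100182, -0.65 to 0.091 for B3A_copy29440, -0.39 to 0.36 for B3_copy11989, -0.51 to 0.10 for B3A_copy83865, -0.49 to 0.14 for antisense B3_copy104230 and -0.49 to 0.16 for B3A_copy25260.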

Other observations

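The share of counts in abundant rows differed between repeat families of the same libraries. By the same mean count of 10, abundant rows held 50.1% of sense and 34.7% of antisense B1 counts, 51.8% and 39.6% for B4, 74.8% and 61.3% for L1, and 81.8% and 89.7% for MIR, an old mammalian SINE. The B2 values, 46.1% and 39.5%, lay nearest those of B4 and B1. These shares depend on how deeply each family was sampled and were not tested against each other.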
